A study of Homo sapiens and Mus musculus with 15 samples.

Results

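The mitochondrial ribosome proteins encoded in the nucleus were followed through proteasome-inhibitor resistance in 2 plasma cell myeloma lines, the mouse line 5TGM1 and the human line RPMI-8226 (8226). Members were the genes whose symbol is MRPL or MRPS followed by a number and whose mean level was 1 CPM (read counts scaled to library size) or more in the naive libraries of the line. This gave 76 members of 23329 listed genes in 5TGM1 and 76 members of 23346 in 8226, and 75 symbols were members in both lines. For this rule CPM used the plain library size, and for all later values the scaled one. In 5TGM1 the rule kept all 76 symbols of the pattern, the lowest being Mrps36 at 9.11 CPM. In 8226 it kept 76 of 79. Just inside the threshold was the pseudogene MRPL45P2 (1.23 CPM), and just outside was the pseudogene MRPL42P5 (0.272 CPM in naive cells). The antisense gene MRPL23-AS1 and the coding gene MRPS24 were listed at 0 counts in all 9 libraries of 8226, whereas mouse Mrps24 was a member. The read-through entry URGCP-MRPS24 was at 0 as well, and its neighbour URGCP had 1045 to 2505 counts per library. Reads on overlapping gene models may count for none of them, and whether the 0 of MRPS24 comes from the counting was not tested.

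The 5 groups had 3 libraries each: bortezomib-resistant 5TGM1 (BR) with naive 5TGM1, and bortezomib-resistant (BR) and carfilzomib-resistant (CR) 8226 with naive 8226. Bortezomib and carfilzomib are inhibitors of the proteasome, which breaks down tagged proteins. Resistant cells were raised in rising amounts of the drug over some months. BR 5TGM1 was maintained at 20 nM bortezomib, BR 8226 at 10 nM bortezomib and CR 8226 at 10 nM carfilzomib. All of them spent 5 days without the drug before RNA was taken. Each resistant group is a single derived line, so resistance, drug exposure and the derivation itself cannot be told apart. RPMI-8226 came from a human plasma cell myeloma, and 5TGM1 from a plasma cell tumour carried through C57Bl/KaLwRij mice.

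The mitochondrial ribosome translates the few messenger RNAs of the mitochondrial genome, which encode core subunits of the respiratory chain and the ATP synthase. Its RNA comes from the mitochondrial genome, while its proteins are made in the cytosol and imported. The small subunit reads the messenger RNA, and the large subunit joins amino acids and sends the growing protein through an exit tunnel towards the inner membrane. Many of the proteins have a counterpart in bacteria, and others were added during the evolution of mitochondria. In the names used here MRPS marks a protein first assigned to the small subunit and MRPL one of the large subunit. MRPS18A and MRPS30 were later placed in the large subunit, and MRPS36 was later assigned to the 2-oxoglutarate dehydrogenase complex.

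The libraries of 5TGM1 held 49097494 to 72288680 gene reads and those of 8226 held 31709636 to 58419576, and members took 0.496% to 0.597% of them. Scaling factors ran from 1.07 to 1.08 in BR, 0.985 to 0.987 in CR and 0.937 to 0.951 in naive 8226, and from 0.996 to 1.00 in 5TGM1. The share of reads outside annotated genes was 14.9% to 16.6% in BR 8226 and 10.4% to 12.9% in naive 8226. All 6 plasma cell markers checked, among them Sdc1 and Xbp1, reached 1 CPM in every group, and their sum was 3407 to 3546 CPM in BR, 5200 to 5349 CPM in CR and 7808 to 9004 CPM in naive 8226. The 4 T cell markers summed to at most 1.79 CPM and the 5 fibroblast markers to at most 2.36 CPM in any library. The 5 macrophage markers summed to 25.1 to 26.6 CPM in BR, 20.1 to 20.6 CPM in CR and 47.2 to 52.7 CPM in naive 8226, nearly all of it CD68 and EMR1. EMR1 alone had a mean of 16.7 CPM in BR, 6.38 CPM in CR and 0.529 CPM in naive 8226. The plasma cell sum in 8226 was mostly IGJ, and IRF4 and TNFRSF17 ran the other way in BR, where IRF4 was at 541 ± 13.9 CPM, against 358 ± 20.0 CPM in naive 8226, and TNFRSF17 at 145 ± 4.04 CPM, against 41.1 ± 2.78 CPM. In 5TGM1 the plasma cell sum was 6819 to 7225 CPM in BR and 5596 to 5850 CPM in naive libraries. Igj, Sdc1, Irf4 and Tnfrsf17 had higher means in BR 5TGM1. Prdm1 and Xbp1 ran the other way, with Prdm1 at a mean of 213 CPM in BR and 302 CPM in naive 5TGM1. The macrophage sum was 351 to 401 CPM in BR and 264 to 268 CPM in naive 5TGM1 libraries, nearly all of it Cd68. The macrophage markers Csf1r, Cd14 and Lyz2 were near 0 in every group of both lines. The part of these markers in the results was not tested. In bulk RNA, fewer cells of a type and less RNA per cell cannot be told apart.

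The summed RNA of the members was higher in BR 5TGM1 than in naive 5TGM1, with no overlap between libraries. Members include MRPS36 and, in 8226, the pseudogene MRPL45P2, and leave out mitoribosomal proteins under other symbols. The sum was 5563, 5681 and 5592 CPM in the BR libraries and 5305, 4955 and 5196 CPM in the naive libraries. The means were 5612 ± 61.5 CPM in BR and 5152 ± 179 CPM in naive cells (SD, n = 3 each). In 8226, under the same TMM scaling (trimmed mean of M values), the sum was 5404, 5189 and 5568 CPM in BR, 5639.9, 5899 and 5617 CPM in CR and 5656, 6131 and 6004 CPM in naive libraries. BR 8226 averaged 5387 ± 190 CPM, CR 5719 ± 157 CPM and naive 5930 ± 246 CPM (n = 3 each). The order of the means turned round when libraries were scaled by their size alone. They were then 5787 ± 183 CPM in BR, 5636 ± 160 CPM in CR and 5598 ± 193 CPM in naive cells. The groups overlapped under that scaling, at 5607 to 5974 CPM in BR, 5531 to 5820 CPM in CR and 5378 to 5742 CPM in naive libraries. That change of scaling moved the median of all genes by 0.183 (log2) in BR against naive 8226. No test was made of these sums, since the members were chosen with results known.

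**Figure D1:**
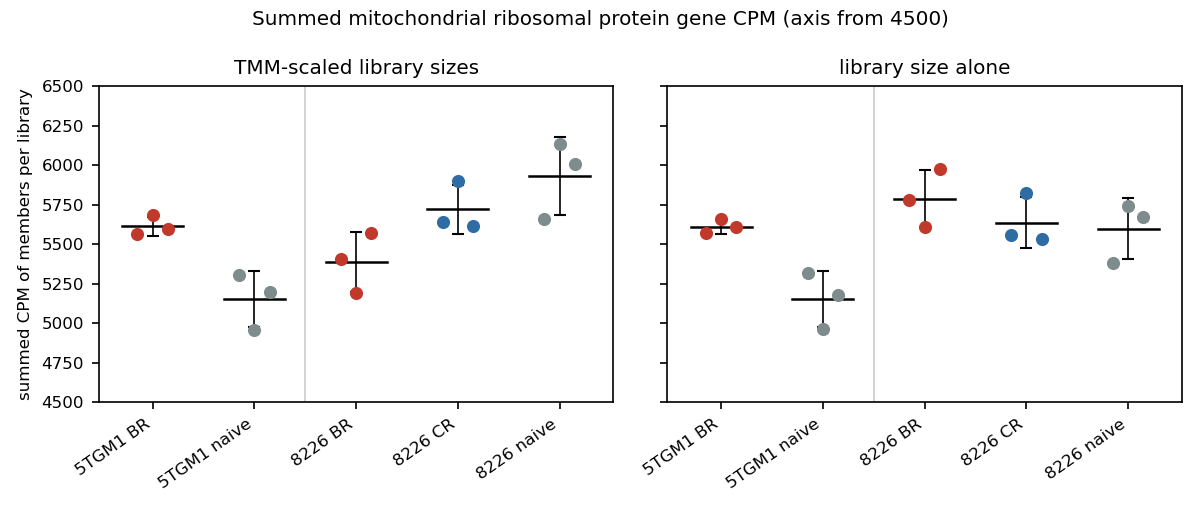
Summed CPM of the members in each library (points), with the group mean and SD (lines), under scaling by the trimmed mean of M values, TMM (left) and by library size alone (right); the axes do not start at 0. BR 5TGM1 lay above naive 5TGM1 under both scalings. The order of the BR and naive 8226 means turned round between them, and their libraries overlapped under library size alone.

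Differences were tested gene by gene with edgeR's quasi-likelihood F test over all genes of a line, and a gene was called at a Benjamini-Hochberg adjusted p below 0.05. All changes below are log2 fold changes ± SE, CPM means are ± SD over the 3 libraries of a group, and every adjusted p comes from that test. All members passed the filter on low counts. With these counts most genes were called in every comparison: 67.2% of all genes in BR against naive 5TGM1, 79.8% in BR against naive 8226, 71.7% in CR against naive 8226 and 76.9% in CR against BR 8226. A call of a single member was therefore common.

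In BR against naive 5TGM1, 49 members were called higher and 8 lower, beside 34% and 33.2% of all genes, and 19 were not called. The median change of the members was 0.16, beside 0.00 for all genes. In BR against naive 8226, 26 were called higher and 32 lower, beside 38.2% and 41.6% of all genes, with a median of -0.04 beside -0.03. Under library size alone that split became 35 higher and 21 lower, beside 47.9% and 33.7% of all genes. The member median was then 0.14 and the all-gene median 0.16. In CR against naive 8226, 18 were called higher and 24 lower, beside 35% and 36.7% of all genes, with medians that round to 0.00 for both. Under library size alone 24 were higher and 20 lower, beside 39.3% and 33.0% of all genes. Relative to all genes, the members as a list were thus shifted by 0.160 in 5TGM1 and by -0.018 and 0.001 in BR and CR 8226. The 2 comparisons with naive 8226 share their naive libraries.

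Members changed by small amounts compared with genes at large. The interquartile range of the member changes was 0.212 in BR against naive 5TGM1, beside 0.499 for all genes. It was 0.648 beside 1.203 in BR 8226 and 0.379 beside 0.817 in CR 8226. In the same order, cytosolic ribosomal protein genes had ranges of 0.148, 0.396 and 0.277. Respiratory chain and ATP synthase genes had 0.197, 0.542 and 0.444. A narrow spread was thus not particular to the members. The set of all genes also holds genes with lower counts, whereas members had to reach 1 CPM in naive cells. A change of at least 2-fold was called for 1 member in 5TGM1 (9.81% of all genes), for 2 members in BR 8226 (32.5%) and for none of the 76 in CR 8226 (24.3%). Libraries did not overlap between resistant and naive cells for 59 members in 5TGM1 (69.7% of all genes), 57 in BR 8226 (79.6%) and 41 in CR 8226 (73.1%).

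**Figure D2:**
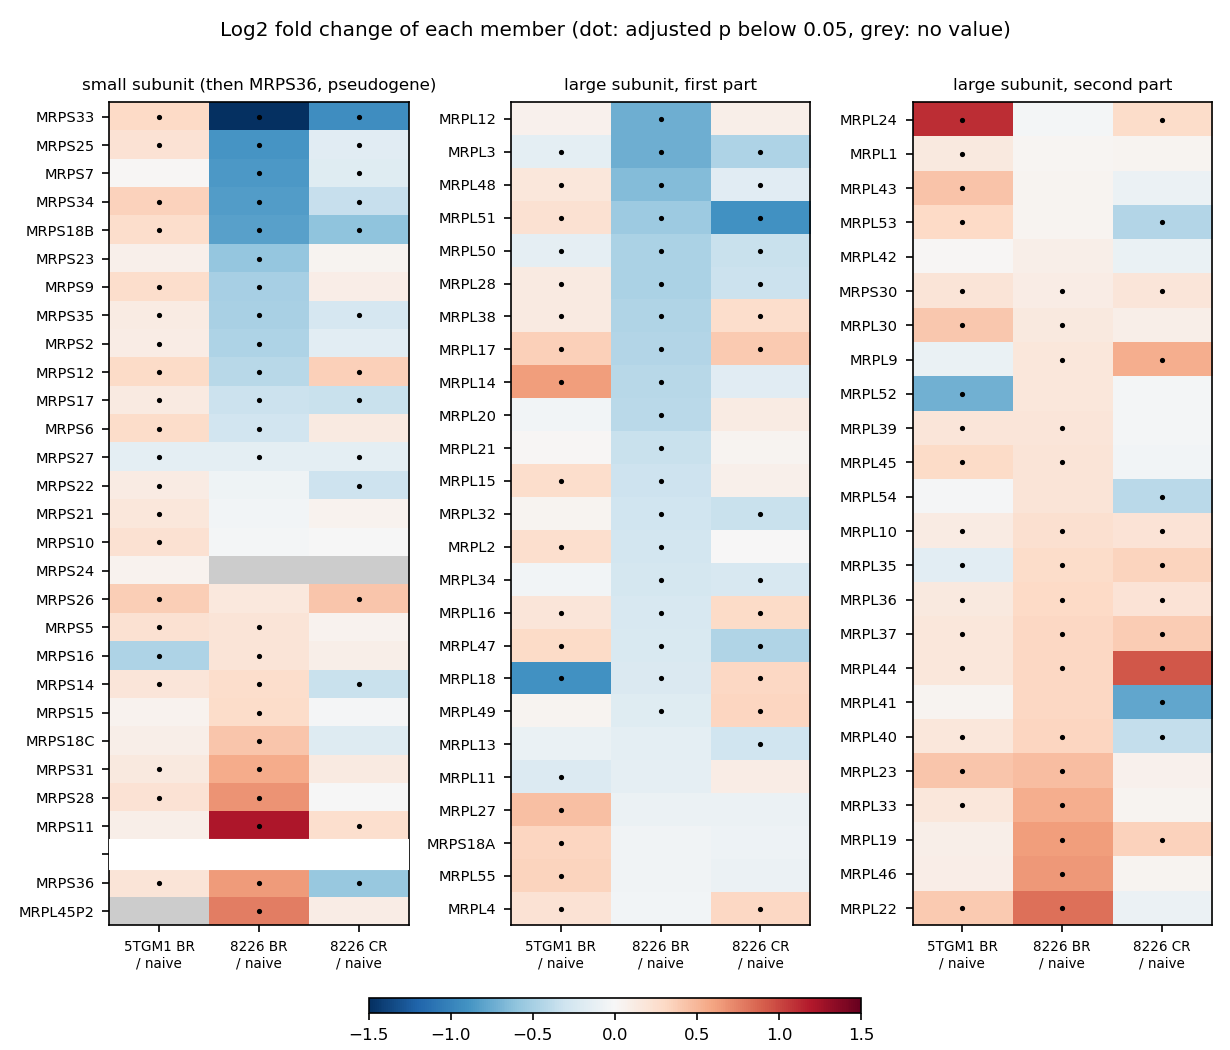
Log2 fold change of every member in BR against naive 5TGM1, BR against naive 8226 and CR against naive 8226, ordered within each subunit by the change in BR 8226; dots mark adjusted p below 0.05 and grey marks MRPS24, which had no counts in 8226. The 5TGM1 column is mostly red (49 higher, 8 lower, beside 34% and 33.2% of all genes), while the 8226 columns hold both directions. Under library size alone the BR 8226 split became 35 higher and 21 lower, beside 47.9% and 33.7% of all genes.

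In BR 5TGM1 the rise ran through both subunits. Of the small subunit members 18 of 26 were called higher and 2 lower, and of the large subunit members 30 of 49 were called higher and 6 lower. Of all genes 34% were called higher and 33.2% lower. The median change was 0.16 in each subunit. In the small subunit 10 of 16 proteins with a bacterial counterpart were higher and 1 lower, and 8 of 10 without were higher and 1 lower. In the large subunit the counts were 18 higher and 4 lower of 30 with a counterpart, and 12 higher and 2 lower of 19 without.

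The member that moved most in BR 5TGM1 was Mrpl24, a large subunit protein with a bacterial counterpart. It was at 77.5, 81.1 and 80.2 CPM in BR libraries, against 38.4, 34.6 and 38.4 CPM in naive libraries, so the lowest BR library lay far above the highest naive one. The change was 1.10 ± 0.0483 (adjusted p = 5.57e-12), or 2.15-fold. Mrpl14, on whose surface the assembly factor MALSU1 docks in human mitochondria, came next at 47.1, 48.4 and 49.2 CPM in BR libraries and 35.4, 27.9 and 30.7 CPM in naive libraries. Its change of 0.63 ± 0.0651 (adjusted p = 3.09e-07) also left a gap between the groups. Mrpl27, Mrpl43, Mrpl23, Mrpl30, Mrpl22 and Mrps26 rose by 0.37 to 0.45, each with no overlap. Mrpl22 and Mrpl23 sit at the exit tunnel, where Mrpl22 was at 50.6 ± 0.659 CPM in BR and 38.7 ± 2.01 CPM in naive cells and Mrpl23 at 14.5 ± 0.914 CPM in BR and 10.9 ± 1.11 CPM in naive cells. Mrpl27, whose bacterial counterpart reaches towards the peptidyl transferase centre, was at 54.3 ± 2.20 CPM in BR and 39.9 ± 2.11 CPM in naive cells.

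A few members went the other way by a comparable size. Mrpl18, whose bacterial counterpart binds 5S ribosomal RNA, was at 55.8, 57.7 and 59.7 CPM in BR libraries, against 114, 105 and 106 CPM in naive libraries. It fell 1.87-fold (-0.91 ± 0.0460, adjusted p = 3.79e-11), and every BR library was below 60 CPM while every naive one was above 100 CPM. Mrpl52, a mitochondria-specific large subunit protein, was at 47.2, 48.0 and 49.0 CPM in BR libraries and 84.6, 74.4 and 78.6 CPM in naive libraries, a change of -0.72 ± 0.0486 (adjusted p = 1.47e-09). Mrps16, a small subunit protein whose human gene is mutated in a combined respiratory chain deficiency, was at 44.5, 43.8 and 42.2 CPM in BR libraries and 61.5, 56.3 and 61.8 CPM in naive libraries (-0.46 ± 0.0470, adjusted p = 2.71e-07). After these 3 the remaining falls were shallow. Mrpl11 at the base of the stalk, Mrpl35, Mrps27, Mrpl3 and Mrpl50 changed by -0.20 to -0.13. Mrps27 lost its call without naive replicate 3 or BR replicate 3, and Mrpl50 without naive replicate 1 or BR replicate 1 (highest adjusted p of 0.0631 and 0.0819).

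**Figure D3:**
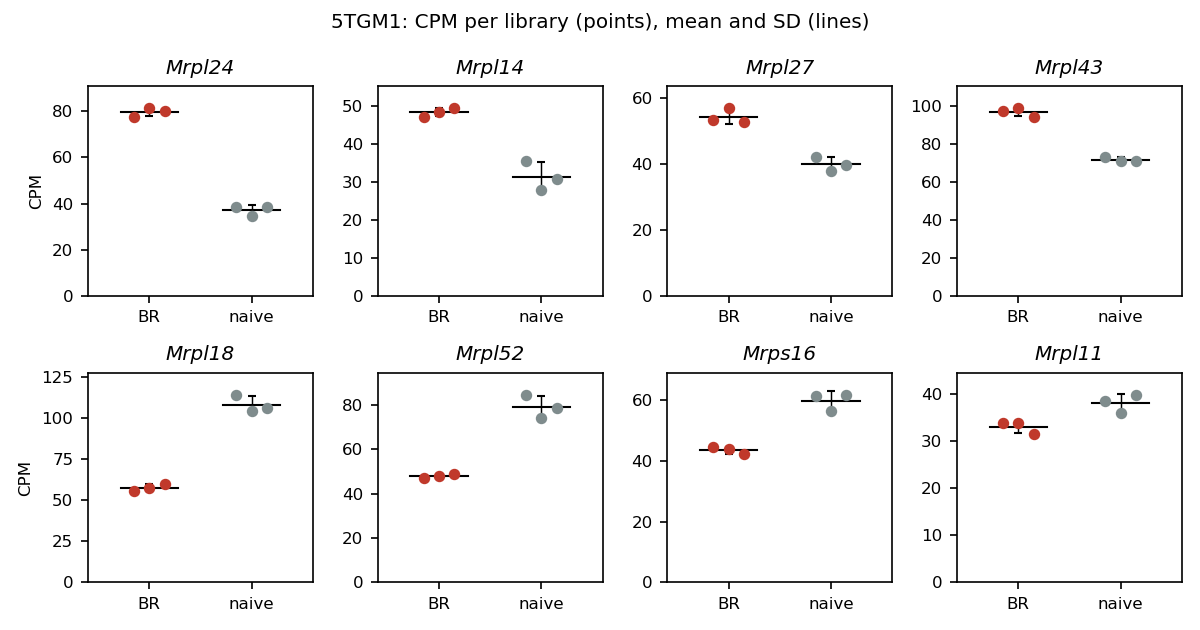
CPM per library in BR and naive 5TGM1 for 4 members that rose (top row) and 4 that fell (bottom row); points are libraries, lines the mean and SD. Mrpl24 was at 79.6 ± 1.89 CPM in BR and 37.2 ± 2.24 CPM in naive cells, and Mrpl18 at 57.7 ± 1.96 CPM in BR and 108 ± 5.19 CPM in naive cells.

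In BR 8226 the small subunit held the largest falls. Of its 25 members 8 (32%) were called higher and 13 (52%) lower, beside 38.2% and 41.6% of all genes. Of the 10 without a bacterial counterpart 7 were lower and 1 higher, with a median of -0.53. The 15 with a counterpart had 7 higher and 6 lower and a median of -0.03. These counts use the TMM scaling. Under library size alone the split of all members became 35 higher and 21 lower, beside 47.9% and 33.7% of all genes. MRPS33, a small mitochondria-specific protein, was at 32.6, 30.6 and 35.6 CPM in BR libraries, against 84.8, 100.1 and 97.2 CPM in naive libraries. It fell 2.85-fold, by far the largest fall of any member in BR 8226 (-1.51 ± 0.0817, adjusted p = 1.08e-10). MRPS25, also mitochondria-specific, was at 52.9, 53.9 and 53.1 CPM in BR libraries and 98.2, 103 and 95.3 CPM in naive libraries (-0.89 ± 0.0595, adjusted p = 1.55e-09). MRPS34, whose loss in patients lowers the small subunit and causes Leigh syndrome, was at 90.5, 84.9 and 94.0 CPM in BR libraries and 151, 158 and 173 CPM in naive libraries. Its change was -0.84 ± 0.0631 (adjusted p = 6.44e-09), and all BR libraries of MRPS25 and MRPS34 lay below all naive ones. MRPS7 in the head of the subunit, which has a bacterial counterpart, fell by 0.86 to 46.8 ± 1.01 CPM in BR, against 84.8 ± 4.66 CPM in naive cells. MRPS23 fell by 0.58 to 51.0 ± 0.536 CPM in BR, against 76.2 ± 5.91 CPM in naive cells.

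The small subunit also held the largest rise. MRPS11, a protein of the platform with a bacterial counterpart, was at 66.6, 66.0 and 77.9 CPM in BR libraries, against 29.2, 30.2 and 31.7 CPM in naive libraries. It was 2.31-fold higher in BR (1.21 ± 0.0750, adjusted p = 6.01e-10), and the lowest BR library was above 60 CPM while no naive library reached 32 CPM. MRPS28 was at 31.5 ± 2.43 CPM in BR and 19.7 ± 1.14 CPM in naive cells (0.68 ± 0.0778, adjusted p = 9.46e-07). MRPS31, the 1 mitochondria-specific small subunit protein called higher, was at 32.8 ± 0.201 CPM in BR and 22.3 ± 2.34 CPM in naive cells (0.56 ± 0.0753, adjusted p = 5.57e-06). MRPS36, the dehydrogenase component, was at 75.3, 71.6 and 75.4 CPM in BR libraries and 40.6, 50.9 and 51.0 CPM in naive libraries (0.64 ± 0.0973, adjusted p = 1.89e-05). None of these 4 overlapped between BR and naive libraries.

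In the large subunit of BR 8226, 16 of 49 members (32.7%) were called higher and 19 (38.8%) lower, beside 38.2% and 41.6% of all genes. MRPL12 forms the stalk that recruits translation factors and also binds the mitochondrial RNA polymerase. It was at 81.1, 76.8 and 90.1 CPM in BR libraries, against 136, 125 and 152 CPM in naive libraries, a fall of 1.66-fold (-0.73 ± 0.0787, adjusted p = 4.26e-07). MRPL10, which anchors MRPL12 to the ribosome, moved the other way, to 53.1 ± 3.44 CPM in BR, against 45.1 ± 2.51 CPM in naive cells (0.24 ± 0.0630, adjusted p = 0.00284). MRPL11, at the base of the stalk, was at 97.5 ± 7.37 CPM in BR and 107 ± 9.57 CPM in naive cells and was not called (adjusted p = 0.0998). Its change of -0.13 was called without naive replicate 1 (adjusted p = 0.0123) or BR replicate 3 (0.0254) and with DESeq2 (0.0482) and turned to 0.06 under library size alone. Thus the 3 stalk genes did not move together. MRPL3, near the peptidyl transferase centre, had the highest level per kilobase of transcript in naive 8226, at 258 ± 15.02 CPM per kilobase, and was still highest in BR at 155 ± 6.19 CPM per kilobase (SD, n = 3 each), among the 75 members with an annotated length; the transcript actually used may be shorter or longer. It was at 277, 256 and 263 CPM in BR libraries and 428, 470.2 and 424 CPM in naive libraries (-0.73 ± 0.0554, adjusted p = 6.65e-09). MRPL48 of the central protuberance fell by 0.65 to 41.1 ± 2.001 CPM in BR, against 64.4 ± 5.52 CPM in naive cells.

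Rises in the large subunit of BR 8226 were led by MRPL22, which lines the exit tunnel. It was at 88.8, 82.6 and 88.1 CPM in BR libraries, against 44.4, 53.7 and 48.2 CPM in naive libraries (0.83 ± 0.0726, adjusted p = 4.03e-08). MRPL46 of the central protuberance, MRPL19 and MRPL33 rose by 0.65, 0.63 and 0.55. MRPL46 was at 34.5, 33.9 and 34.7 CPM in BR libraries and 20.98, 24.0 and 20.6 CPM in naive libraries, with the narrowest spread of the 3 in BR. MRPL45 tethers the ribosome to the inner membrane and was at 56.6 ± 2.54 CPM in BR and 49.4 ± 3.09 CPM in naive cells (0.20 ± 0.0602, adjusted p = 0.00758). Its pseudogene MRPL45P2 was at 2.25 ± 0.160 CPM in BR and 1.31 ± 0.0996 CPM in naive cells (0.77 ± 0.137, adjusted p = 9.14e-05). Reads that fit both copies are set aside by the counting, so both values are uncertain. MRPS30, a large subunit protein despite its symbol, was called at 0.11 ± 0.0475 (adjusted p = 0.0398) but lost the call in 12 of 17 alternatives (adjusted p of 0.0506 to 0.127), among them those without naive replicate 1, 2 or 3, without BR replicate 1 or 3 and without CR replicate 1 or 2.

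In CR 8226 the list had fewer calls and smaller changes. Of the small subunit members 3 of 25 were called higher and 10 lower, and the 10 without a bacterial counterpart again had 7 lower and 1 higher, with a median of -0.21. In the large subunit 15 of 49 were called higher and 13 lower. Of all genes 35% were called higher and 36.7% lower, and these counts use the TMM scaling. The largest rise was that of MRPL44, a mitochondria-specific protein with an RNase III-like fold whose loss in patients causes cardiomyopathy. It was at 47.5, 48.9 and 53.1 CPM in CR libraries, against 24.9, 24.8 and 28.8 CPM in naive libraries, or 1.91-fold higher in CR (0.93 ± 0.0710, adjusted p = 1.14e-08). MRPL9 followed at 128, 129.6 and 133 CPM in CR libraries and 89.4, 92.3 and 87.1 CPM in naive libraries (0.54 ± 0.0527, adjusted p = 2.04e-07). Both had a clear gap between the groups. MRPS26, MRPL17, MRPL37, MRPS12, MRPL19 and MRPL35 rose by 0.34 to 0.41, again with no overlap. MRPS12 lines the decoding centre and was at 44.2 ± 2.37 CPM in CR and 34.5 ± 5.31 CPM in naive cells.

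MRPS33 was the member that fell most in CR 8226 too. It was at 46.0, 54.6 and 47.8 CPM in CR libraries, against 84.8, 100.1 and 97.2 CPM in naive libraries (-0.93 ± 0.0789, adjusted p = 4.15e-08). MRPL51, a mitochondria-specific large subunit protein, was at 75.7, 85.9 and 71.1 CPM in CR libraries and 130.4, 165 and 143 CPM in naive libraries (-0.91 ± 0.0861, adjusted p = 1.38e-07). MRPL41 was at 12.04, 13.1 and 10.9 CPM in CR libraries and 19.9, 15.6 and 26.2 CPM in naive libraries (-0.78 ± 0.152, adjusted p = 0.000301). The naive libraries of MRPL41 were the most scattered of these 3 relative to their mean, yet the lowest of them was above all CR libraries. MRPS18B and MRPS36 fell by 0.61 and 0.57, and MRPL3, MRPL47 at the exit tunnel and MRPL53 fell by 0.47, 0.45 and 0.44. MRPL3 was at 312, 331 and 315 CPM in CR libraries and 428, 470.2 and 424 CPM in naive libraries (adjusted p = 1.81e-06). MRPS22, a mitochondria-specific small subunit protein, was at 65.8 ± 2.33 CPM in CR and 82.0 ± 8.56 CPM in naive cells (-0.32 ± 0.0682, adjusted p = 0.000677).

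The lines resistant to the 2 inhibitors, both kept in 10 nM drug, were then compared directly. In CR against BR 8226, 30 members were called higher and 24 lower, beside 39.9% and 37% of all genes. Under library size alone the split was 25 higher and 32 lower, beside 33.7% and 43.2% of all genes. The member median was then -0.10 and the all-gene median -0.08. With TMM the members' median was 0.02, as for all genes, and 60 of 76 did not overlap between CR and BR libraries (79.8% of all genes). Changes of at least 2-fold were called for 2 members (27.9% of all genes). Since each drug is represented by 1 line, a difference between the lines cannot be told apart from a difference between the drugs.

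MRPL17, MRPL12, MRPS12, MRPS25, MRPL38, MRPS7, MRPS23 and MRPL44 were higher in CR than in BR 8226 by 0.62 to 0.83. MRPL17 was at 44.9, 49.95 and 45.7 CPM in CR libraries, against 26.4, 24.8 and 27.7 CPM in BR libraries (0.83 ± 0.0668, adjusted p = 1.59e-08). Naive libraries lay between them at 33.7, 37.3 and 36.1 CPM, so that MRPL17 was called higher in CR and lower in BR against naive cells. MRPL12 was at 137, 158 and 143 CPM in CR libraries and 81.1, 76.8 and 90.1 CPM in BR libraries (0.82 ± 0.0785, adjusted p = 1.27e-07), and its change in CR against naive cells was not called (0.09 ± 0.0772). MRPS12 was at 45.9, 45.2 and 41.5 CPM in CR libraries and 24.7, 24.1 and 28.9 CPM in BR libraries (0.77 ± 0.0972, adjusted p = 2.9e-06). MRPL38 of the central protuberance was at 72.7 ± 1.84 CPM in CR and 44.3 ± 4.36 CPM in BR cells. Of these members MRPL17, MRPS12 and MRPL38 were called higher in CR and lower in BR against naive cells.

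MRPS36, MRPL41, MRPS11, MRPL22, MRPS28, MRPL40, MRPL46 and MRPS18C were lower in CR than in BR 8226, with changes of -0.61 to -1.21. MRPS36 was at 32.4, 36.5 and 27.4 CPM in CR libraries, against 75.3, 71.6 and 75.4 CPM in BR libraries, or 2.31-fold lower in CR (-1.21 ± 0.0986, adjusted p = 1.89e-08). Naive cells again lay between them, at 40.6, 50.9 and 51.0 CPM. MRPL41 was at 12.04, 13.1 and 10.9 CPM in CR libraries and 23.8, 22.7 and 30.2 CPM in BR libraries (-1.09 ± 0.152, adjusted p = 8.32e-06). MRPS11 was at 35.1, 39.2 and 34.3 CPM in CR libraries and 66.6, 66.0 and 77.9 CPM in BR libraries (-0.96 ± 0.0737, adjusted p = 9.65e-09). MRPL22, at 46.1 ± 3.39 CPM in CR and 86.5 ± 3.38 CPM in BR cells, was not called in CR against naive cells (-0.08 ± 0.0729, adjusted p = 0.321). MRPL40, a central protuberance protein whose gene lies in the region lost in DiGeorge syndrome, was at 14.6 ± 1.36 CPM in CR and 23.3 ± 1.10 CPM in BR cells.

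**Figure D4:**
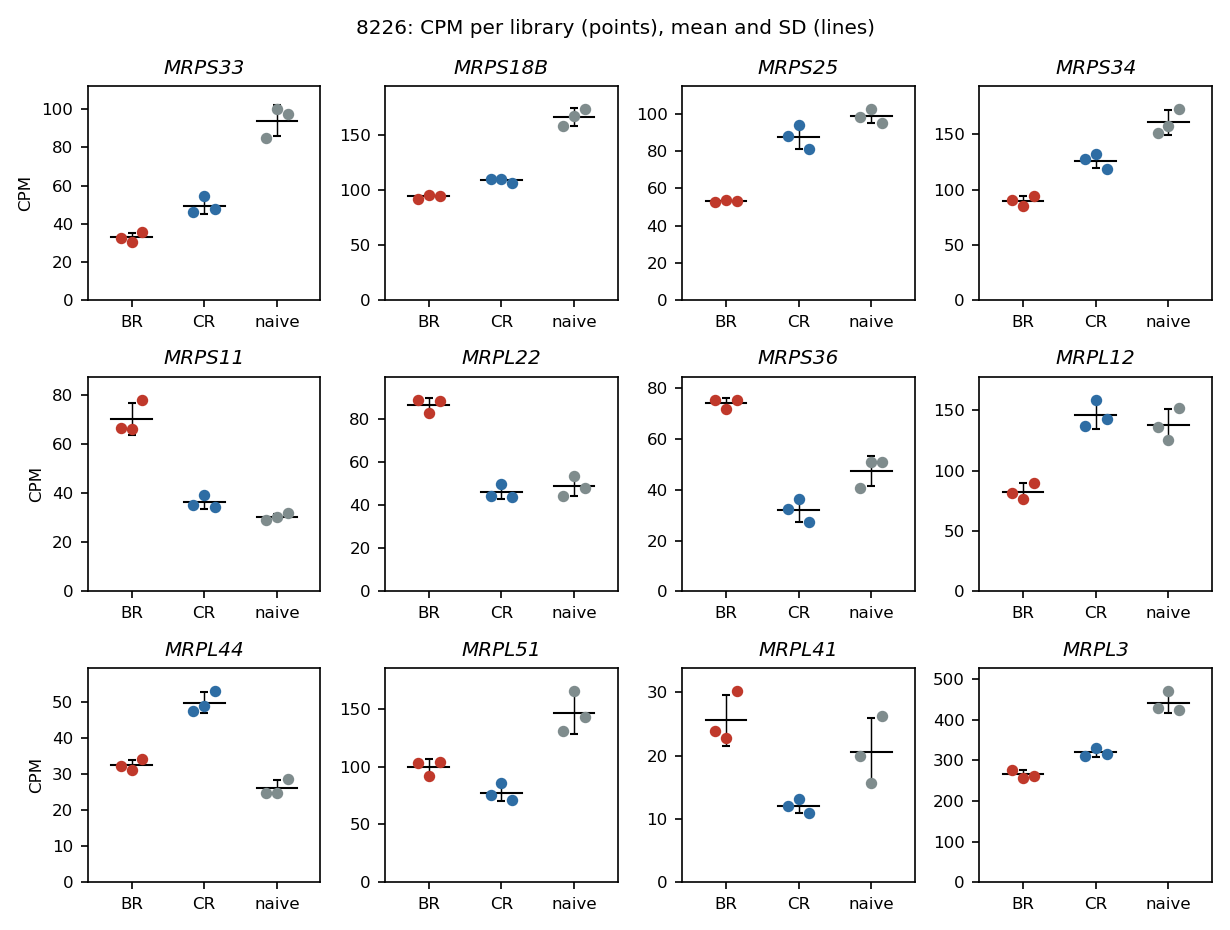
CPM per library in BR, CR and naive 8226 for 12 members; points are libraries, lines the mean and SD. MRPS33 was lowest in BR (32.9 ± 2.48 CPM), then CR (49.4 ± 4.52 CPM) and naive cells (94.1 ± 8.14 CPM), while MRPS36 was highest in BR (74.1 ± 2.12 CPM) and lowest in CR (32.1 ± 4.60 CPM).

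The MRPS18 paralogs are derived from the same bacterial protein, with MRPS18B and MRPS18C in the small subunit and MRPS18A in the large one. MRPS18C keeps the bacterial position, so it alone of the 3 was counted above as having a bacterial counterpart. MRPS18B was at 92.1, 95.3 and 94.7 CPM in BR, 109.8, 109.9 and 107 CPM in CR and 157, 167 and 173 CPM in naive 8226. It fell by 0.82 in BR (adjusted p = 5.74e-10) and by 0.61 in CR (adjusted p = 2.85e-08), with no overlap in either. MRPS18C was at 58.2, 55.8 and 56.3 CPM in BR, 35.6, 43.8 and 32.4 CPM in CR and 39.1, 45.6 and 43.3 CPM in naive 8226. It rose in BR (0.41 ± 0.0907, adjusted p = 0.000656). In CR against naive 8226 its change of -0.20 (adjusted p = 0.0632) overlapped between groups. It was 0.00 when reads were counted without regard to strand, -0.32 without CR replicate 2 (adjusted p = 0.00153) and -0.26 without naive replicate 1 (adjusted p = 0.0348). HELQ starts 175 bases away on the other strand, and its part in the unstranded value was not tested. MRPS18A was at 38.3 ± 3.16 CPM in BR, 37.7 ± 2.96 CPM in CR and 39.8 ± 1.56 CPM in naive 8226 and was called in neither comparison with naive cells. In BR 5TGM1 Mrps18a and Mrps18b rose by 0.32 and 0.26. Mrps18c was at 56.8 ± 0.430 CPM in BR and 53.4 ± 3.39 CPM in naive 5TGM1, and was not called (0.09 ± 0.0476, adjusted p = 0.103), except without naive replicate 1 (adjusted p = 0.00802).

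The change under bortezomib resistance was compared between the lines by testing the difference itself, 8226 minus 5TGM1, over genes with the same symbol. Of the 75 shared members 15 were called with a higher change in 8226 and 38 with a lower change, beside 31.4% and 33.5% of all genes (64.9% in either direction). Under library size alone 28 were called higher, and the share of all genes under that scaling was not computed. The 28 can therefore not be set against all genes. The median difference was -0.21 for the members and -0.03 for all genes. By calls, 17 members were higher in both lines and 4 lower in both, while 20 were lower in BR 8226 and higher in BR 5TGM1 and 2 were higher in BR 8226 and lower in BR 5TGM1. As shares of the 75 members these are 22.7%, 5.33%, 26.7% and 2.67%, beside 14.3%, 15.7%, 13.2% and 11.2% of the genes tested in both lines. These counts by line use the TMM scaling, with 32 members lower in BR 8226, against 21 under library size alone. A symbol match is not an orthology table.

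**Figure D5:**
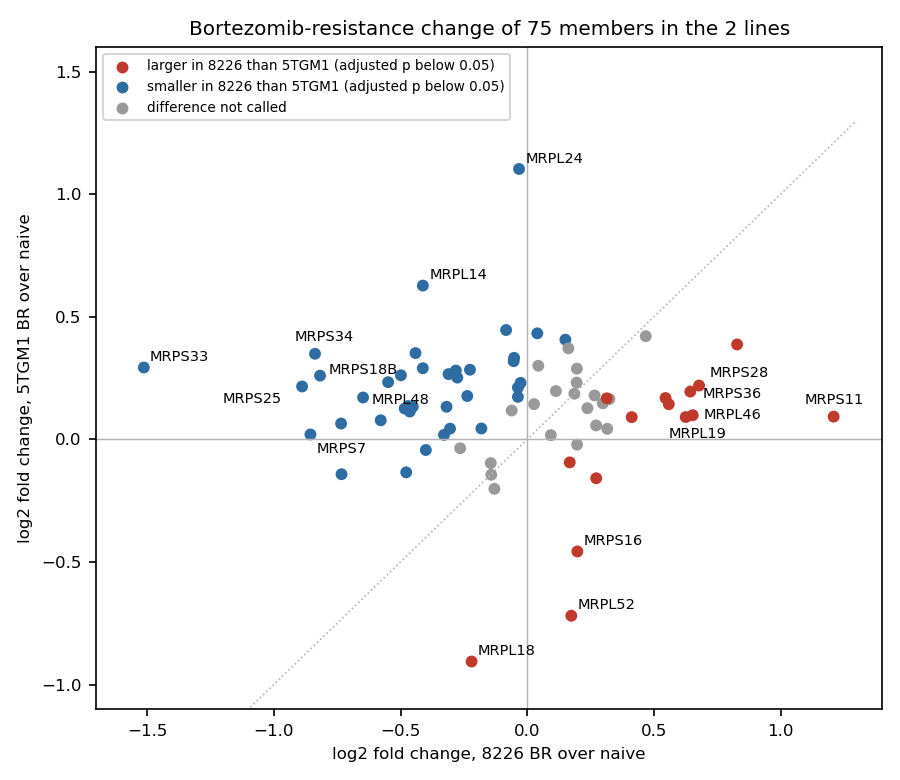
Change with bortezomib resistance in 8226 (horizontal axis, log2) and in 5TGM1 (vertical axis, log2) for the 75 members found in both lines; the dotted line marks equal changes, and red and blue mark members with a larger or smaller change in 8226 at adjusted p below 0.05. MRPS33 and MRPS11 lie farthest out along the 8226 axis, and Mrpl24 and Mrpl18 along the 5TGM1 axis.

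MRPS33 differed most between the lines. The human gene fell by 1.51 in BR 8226, whereas the mouse gene was at 13.5, 12.6 and 12.5 CPM in BR and 10.9, 10.6 and 9.88 CPM in naive 5TGM1, a rise of 0.29 ± 0.0623 (adjusted p = 0.000564). The difference was -1.79 ± 0.105 (adjusted p = 1.06e-11). MRPS34, MRPS25 and MRPS18B likewise fell in BR 8226 and rose in BR 5TGM1, with differences of -1.17 ± 0.0803, -1.08 ± 0.0737 and -1.06 ± 0.0753. Mrps34 was at 67.8, 68.5 and 68.9 CPM in BR and 55.8, 52.5 and 53.0 CPM in naive 5TGM1, with no overlap. In 8226 MRPL24 was at 78.2, 74.97 and 88.2 CPM in BR and 76.7, 86.8 and 83.5 CPM in naive cells, where the groups overlapped and the gene was not called (-0.03 ± 0.0704, adjusted p = 0.681, and 0.15 under library size alone). Its difference from the 2.15-fold rise in 5TGM1 was -1.11 ± 0.0926 (adjusted p = 2.13e-09). On the other side, MRPS11 differed by 1.14 ± 0.0883. Mrps11 was at 62.3, 63.4 and 61.1 CPM in BR and 60.4, 56.2 and 58.8 CPM in naive 5TGM1, where its change was not called (0.09 ± 0.0428, adjusted p = 0.0658) except without naive replicate 1 (0.0252). MRPL52, MRPL18 and MRPS16 differed by 0.92 ± 0.103, 0.71 ± 0.0957 and 0.68 ± 0.0889. In BR 8226 MRPL52 was not called (0.17), MRPL18 fell by 0.22 and MRPS16 rose by 0.20, and in BR 5TGM1 all 3 fell. The call of MRPL18 in BR 8226 was lost under library size alone (-0.03, adjusted p = 0.674) and without naive or BR replicate 2 (0.0592 and 0.0582), and MRPL52 was called under library size alone (0.36, adjusted p = 0.00252) and without naive replicate 3 (0.0322).

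Some members were called in the same direction in each resistant line. MRPL44, MRPL37, MRPL36, MRPL10 and MRPS30 were called higher in BR 5TGM1, BR 8226 and CR 8226, and MRPL3, MRPL50 and MRPS27 were called lower. The 2 human comparisons share naive libraries, so their directions are not independent. Most genes were called in each comparison, and the share of all genes called alike in all 3 was not computed. These names are therefore a description, and no excess over other genes can be read from them. Mrpl44 was at 47.9, 47.8 and 50.2 CPM in BR and 44.2, 42.3 and 43.7 CPM in naive 5TGM1 (0.16 ± 0.0431). MRPL44 was at 32.2, 31.2 and 34.1 CPM in BR 8226 (0.32 ± 0.0726 against naive cells), and the change in CR was larger than in BR by 0.62 ± 0.0705 (adjusted p = 9.71e-07). MRPL37 changed by 0.17 in BR 5TGM1, 0.31 in BR 8226 and 0.38 in CR 8226, and MRPL36 by 0.15, 0.30 and 0.21 in the same order. MRPL50 changed by -0.13, -0.48 and -0.33, and MRPS27 by -0.14, -0.14 and -0.15. Mrpl3 fell by 0.14 to 72.3 ± 1.15 CPM in BR, against 79.8 ± 2.22 CPM in naive 5TGM1 (adjusted p = 0.00577). Of these, Mrpl10 lost its call in 5TGM1 without naive replicate 2 or BR replicate 2 or 3 (adjusted p of up to 0.0668). Mrpl50, Mrps27 and MRPS30 lost theirs as given above. MRPL36 lost its call in CR 8226 without naive replicate 1 (adjusted p = 0.132) or CR replicate 2 (0.165). For MRPS27 the change in BR 8226 turned to 0.04 under library size alone (adjusted p = 0.450), and its call was lost without naive replicate 1 or BR replicate 1 or 3 (adjusted p of 0.0501 to 0.0692). Its call in CR 8226 was lost under library size alone (-0.09, adjusted p = 0.152) and without CR replicate 1 or 2 (0.106 and 0.116).

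Of the other members named whatever their value, Mrps6 and Mrps12 rose in BR 5TGM1 by 0.28 and 0.29, and Mrpl45 by 0.29. Mrps22 (0.12 ± 0.0433, adjusted p = 0.0246) and Mrps36 (0.19 ± 0.0687, adjusted p = 0.0195) were called, but Mrps22 not without naive replicate 2 or BR replicate 2 or 3, and Mrps36 not without naive replicate 2 or 3 or BR replicate 1. Mrpl12 and Mrpl41 were not called in 5TGM1 (0.06 ± 0.0450 and 0.04 ± 0.0524). In BR 8226 MRPS6 fell by 0.28 (adjusted p = 0.00196), a call lost under library size alone (-0.09, adjusted p = 0.213). SLC5A3 lies within the MRPS6 gene, and reads on both count for neither, so the MRPS6 values are uncertain. MRPS16 was at 122 ± 3.04 CPM in BR, 113 ± 4.84 CPM in CR and 106 ± 10.4 CPM in naive 8226, and its call in BR (0.20 ± 0.0650, adjusted p = 0.0114) was lost without naive replicate 2 (adjusted p = 0.0504). MRPL41 in BR 8226 (0.32 ± 0.148, adjusted p = 0.0621) was not called, but was called in 5 of 17 alternatives. These were library size alone (0.50, adjusted p = 0.00664), no filter on low counts (0.0115), the replicate block (0.0265), and those without naive replicate 3 (0.52, adjusted p = 0.000737) or BR replicate 2 (0.0393).

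The promoters of the human members were read for motifs of factors known from genes of mitochondrial function. GABP, also called NRF2, is an ETS factor, NRF1 and YY1 act at many such genes, and MYC binds the E-box. RefSeq (GRCh38.p14) gave a promoter of 300 bases, 250 before and 50 after the start, for 67 of the 76 members. Both strands were searched for fixed letters. The ETS motif CCGGAAG was in 28 of 67 (41.8%), beside 14.2% of 15843 promoters of protein-coding genes. A longer YY1 motif, which holds the letters AAGATGG, was in 9 (13.4%, beside 1.37%), the E-box CACGTG in 7 (10.4%, beside 8.88%) and the palindromic NRF1 motif, which holds GCATGC, in 1 (1.49%, beside 1.75%). A match is a description of the letters and not a bound site. For NRF1 only the exact full palindrome counted, of which GCATGC is the middle, so near matches were left out. The MRPS18C and MRPL22 sequences printed below hold GCATGC without a full match. The share for NRF1 therefore says nothing of sites with other letters.

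The 250 bases before the start of 4 members are shown: MRPS34 is among those that fell most in BR 8226, MRPL22 and MRPS11 rose most, and MRPS18C holds both motifs. Capitals mark the ETS motif (CCGGAAG, or CTTCCGG on the other strand) and the E-box (CACGTG). MRPS34 (chr16:1773135-1773384, minus strand) holds 3 ETS matches. MRPS18C (chr4:83455808-83456057, plus strand) holds an ETS match and an E-box. MRPL22 (chr5:154940823-154941072, plus strand) holds an E-box. MRPS11 (chr15:88467458-88467707, plus strand) holds none of the motifs in this window.
MRPS34: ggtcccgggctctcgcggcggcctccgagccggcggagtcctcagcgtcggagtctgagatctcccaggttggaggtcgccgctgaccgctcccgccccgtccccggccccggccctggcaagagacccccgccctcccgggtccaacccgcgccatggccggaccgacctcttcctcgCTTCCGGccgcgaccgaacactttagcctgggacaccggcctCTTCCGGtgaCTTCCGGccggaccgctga
MRPS18C: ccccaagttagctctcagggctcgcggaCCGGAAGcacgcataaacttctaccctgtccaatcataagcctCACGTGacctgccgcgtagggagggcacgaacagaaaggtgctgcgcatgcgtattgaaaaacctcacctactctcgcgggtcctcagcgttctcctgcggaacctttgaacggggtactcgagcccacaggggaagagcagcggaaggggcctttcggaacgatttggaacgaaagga
MRPL22: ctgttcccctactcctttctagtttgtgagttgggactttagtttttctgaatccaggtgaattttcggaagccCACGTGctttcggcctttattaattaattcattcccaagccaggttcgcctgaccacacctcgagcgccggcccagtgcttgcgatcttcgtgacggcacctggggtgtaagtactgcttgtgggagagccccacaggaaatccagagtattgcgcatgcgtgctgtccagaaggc
MRPS11: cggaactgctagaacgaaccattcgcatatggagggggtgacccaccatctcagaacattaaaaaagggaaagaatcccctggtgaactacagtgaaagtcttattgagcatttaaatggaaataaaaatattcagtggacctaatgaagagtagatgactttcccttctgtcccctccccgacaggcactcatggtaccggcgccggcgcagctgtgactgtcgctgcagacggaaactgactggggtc

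By motif, the members with an E-box were MRPL22, MRPL36, MRPL37, MRPL45, MRPL49, MRPS18C and MRPS36. In BR against naive 8226, 6 of these 7 were called higher and 1 lower, beside 15 higher and 28 lower of the 60 without. Of all genes 38.2% were called higher and 41.6% lower. In CR against naive 8226 the 7 had 3 called higher and 1 lower, beside 13 and 22 of the 60. In CR against BR 8226 they had 1 higher and 4 lower, beside 26 and 17. MRPL22, MRPL36 and MRPS36 lie on chromosome 5, where the median change of all genes in BR 8226 was 0.33. MRPL22 and MRPL36 also hold the YY1 motif. The part of either in these counts was not tested. Members with the ETS motif had 6 called higher and 12 lower of 28 in BR against naive 8226, and those without had 15 higher and 17 lower of 39. No test was made of these counts, which use the TMM scaling.

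MRPS11 and MRPL46 start 320 bases apart on opposite strands of chromosome 15, so the window printed for MRPS11 lies between the starts. Both rose in BR against naive 8226 (1.21 and 0.65) and both were lower in CR than in BR (-0.96 and -0.61). In BR 5TGM1 neither mouse gene was called (0.09 and 0.10), except both without naive replicate 1. Other members share a start region with a gene that is no member. Of 15 such pairs within 1000 bases with both genes tested, 7 had both genes called in BR against naive 8226, 4 in the same direction and 3 in opposite directions. MRPL49 fell with FAU, which encodes a cytosolic ribosomal protein, in BR (-0.18 and -0.59), a call that MRPL49 lost without naive replicate 2 or BR replicate 1 and under library size alone (0.01), while in CR MRPL49 rose and FAU fell (0.33 and -0.31). MRPS12 and SARS2, the mitochondrial seryl-tRNA synthetase gene, were opposite in BR (-0.41 and 0.29) and together in CR (0.36 and 0.54).

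Changes of members in BR 8226 were also set beside those of all genes on the same chromosome, for the 12 chromosomes with at least 3 members. For the 4 members on chromosome 3 the median change was -0.48 and that of all genes there -0.49. It was 0.30 beside 0.33 for the 5 on chromosome 5, -0.32 beside -0.38 for the 3 on chromosome 7, -0.24 beside -0.28 for the 7 on chromosome 11 and 0.07 for both for the 8 on chromosome 1. MRPS25 and MRPL3 lie on chromosome 3, MRPL22 and MRPS36 on chromosome 5 and MRPS33 on chromosome 7. Values were farther apart on chromosomes 12 (-0.48 beside 0.02, 3 members), 9 (-0.46 beside -0.01, 3 members), 2 (0.23 beside -0.07, 8 members), 6 (-0.25 beside 0.00, 6 members) and 19 (-0.15 beside 0.07, 4 members). They were -0.27 beside -0.18 on chromosome 17 (8 members) and -0.14 beside -0.09 on chromosome 8 (3 members). These medians were not tested against each other, copy number was not measured here, and its part in the result was not tested.

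The mitoribosomal proteins that carry other symbols moved as follows. Of 7, 4 were called higher and 3 lower in BR 5TGM1, 2 higher and 1 lower in BR 8226, and 3 higher and none lower in CR 8226. Under library size alone these were 4 and 1 in BR and 4 and 0 in CR 8226. With TMM, 34% of all genes were higher and 33.2% lower in BR 5TGM1. In BR 8226 these shares were 38.2% and 41.6%, and in CR 8226 35% and 36.7%. Under library size alone the shares of all genes were 47.9% and 33.7% in BR and 39.3% and 33.0% in CR 8226. DAP3, a GTP-binding protein of the small subunit, was at 347 ± 15.7 CPM in CR and 208 ± 16.3 CPM in naive 8226 (0.74 ± 0.0594, adjusted p = 2.14e-08) and at 242 ± 4.58 CPM in BR (0.22 ± 0.0593). ICT1, a peptidyl-tRNA hydrolase built into the large subunit, fell to 19.0 ± 0.162 CPM in BR, against 37.7 ± 3.21 CPM in naive 8226 (-0.98 ± 0.0674, adjusted p = 2.03e-09). In BR 5TGM1 Ict1 rose (0.45 ± 0.0408) as did Dap3 (0.31 ± 0.0402). Chchd1 and Mrp63 fell in BR 5TGM1, by 0.67 and 0.47, and Ptcd3, a pentatricopeptide protein at the messenger entry, by 0.33. PTCD3 was not called in BR 8226 (-0.01 ± 0.0582) and was higher in CR (0.17 ± 0.0579, adjusted p = 0.0154).

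Genes that build and serve the mitochondrial ribosome gave mixed counts. Of all genes 34% were higher and 33.2% lower in BR 5TGM1, 38.2% and 41.6% in BR 8226, and 35% and 36.7% in CR 8226. Of the assembly factors 9 were higher and 4 lower of 21 in BR 5TGM1, 10 and 10 of 23 in BR 8226, and 6 and 9 of 23 in CR 8226. MTERFD2, which brings the methyltransferase NSUN4 to the ribosomal RNA, was at 10.5 ± 0.281 CPM in CR and 20.7 ± 2.31 CPM in naive 8226 (-0.98 ± 0.0815, adjusted p = 3.43e-08). Mettl17 fell by 0.74 in BR 5TGM1. Of the translation factors 3 were higher and 3 lower of 12 in BR 5TGM1, 5 and 8 of 14 in BR 8226, and 4 and 5 of 14 in CR 8226. Oxa1l, the insertase that receives new mitochondrial proteins, fell to 26.3 ± 0.485 CPM in BR, against 44.9 ± 1.32 CPM in naive 5TGM1. MRRF, the ribosome recycling factor, fell by 0.77 in CR 8226, and GFM2, which acts with it, was at 81.7 ± 5.60 CPM in CR and 191 ± 2.28 CPM in BR 8226. Of the mitochondrial aminoacyl-tRNA synthetases 6 were higher and 7 lower of 19 in BR 5TGM1, 11 and 7 of 20 in BR 8226, and 10 and 6 of 20 in CR 8226. NARS2 fell by 1.13 in BR 8226. Under library size alone the numbers higher and lower in BR 8226 were 12 and 8 for assembly factors, 6 and 4 for translation factors and 12 and 5 for synthetases, and in CR 8226 they were 10 and 8, 5 and 4, and 11 and 3.

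In the list for mitochondrial transcription and DNA maintenance, MTERF, which stops transcription after the ribosomal RNA genes, was at 1.67 ± 0.0246 CPM in BR and 29.9 ± 2.34 CPM in naive 8226 (-4.16 ± 0.0933, adjusted p = 2.83e-15), and at 25.1 ± 0.448 CPM in CR. Of its list 3 were higher and 3 lower of 7 in BR 5TGM1, 3 and 6 of 9 in BR 8226, and 2 and 2 of 9 in CR 8226. The shares of all genes were 34% and 33.2%, 38.2% and 41.6%, and 35% and 36.7% in the same order. C10orf2, the mitochondrial DNA helicase, fell by 1.02 in BR 8226. TFAM, which packs mitochondrial DNA, fell in BR 5TGM1 (-0.13 ± 0.0410) and BR 8226 (-0.40 ± 0.0524) and was not called in CR 8226 (-0.02 ± 0.0518). POLRMT, the RNA polymerase, fell in BR 5TGM1 (-0.25 ± 0.0430) and rose in BR (0.40 ± 0.114) and CR 8226 (0.40 ± 0.113).

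Of the regulators known to drive genes of this kind 1 was higher and 4 lower of 9 in BR 5TGM1. In BR 8226 the counts were 2 and 5 of 8, and in CR 8226 3 and 1 of 8. The shares of all genes were 34% and 33.2%, 38.2% and 41.6%, and 35% and 36.7% in the same order. MYC was at 703 ± 8.56 CPM in BR, 1079 ± 17.7 CPM in CR and 913 ± 31.9 CPM in naive 8226 (-0.38 ± 0.0482 in BR and 0.24 ± 0.0481 in CR). PPRC1, a coactivator of the PGC-1 family, fell to 40.8 ± 1.398 CPM in BR, against 65.4 ± 4.78 CPM in naive 8226, and NRF1 fell by 0.34. Myc, Pprc1 and Nrf1 fell in BR 5TGM1 by 0.15, 0.14 and 0.12. In the test of the line difference, 8226 minus 5TGM1, GABPA differed by -0.75 ± 0.0814 (adjusted p = 1.00e-07). GABPB1 (0.09) and YY1 (-0.04) were not called there. The part of any regulator in the changes of the members was not tested. PPARGC1B rose in BR (0.30 ± 0.0751) and CR 8226 (0.55 ± 0.0736), and Ppargc1b in BR 5TGM1 was not called (0.16 ± 0.0929). Ppargc1a was at 0.542 CPM in BR and 0.429 CPM in naive 5TGM1.

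Of the mitochondrial chaperones and proteases 7 were higher and 1 lower of 12 in BR 5TGM1, 5 and 7 of 12 in BR 8226, and 3 and 3 of 12 in CR 8226, and under library size alone 5 and 4 in BR and 5 and 3 in CR 8226. GRPEL1, the nucleotide exchange factor of the import motor, was at 102 ± 2.52 CPM in CR and 48.8 ± 3.93 CPM in naive 8226 (1.06 ± 0.0628, adjusted p = 5.35e-10). CLPX, the unfoldase of the matrix protease, fell by 1.02 in BR 8226. For comparison, cytosolic ribosomal protein genes had 60 higher and 5 lower of 79 in BR 5TGM1, 3 and 66 of 81 in BR 8226, and 2 and 60 of 81 in CR 8226, with medians of 0.18, -0.45 and -0.39. Respiratory chain and ATP synthase genes had 46 higher and 5 lower of 75, 24 and 23 of 77, and 9 and 42 of 77. Their medians were 0.13, 0.00 and -0.22. With TMM, the shares of all genes higher and lower were 34% and 33.2%, 38.2% and 41.6%, and 35% and 36.7% in the same order. The members' own medians were 0.16, -0.04 and about 0, so in 5TGM1 the 3 lists had similar medians and in 8226 the members lay above the cytosolic ribosomal list. No test was made between lists, and the counts and medians of the last 2 lists use the TMM scaling, beside which library size alone moved the median of all genes in BR 8226 by 0.183.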

How the data were processed

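RNA was sequenced in 15 libraries in 5 groups of 3, grouped and numbered from the sample titles. The labels do not say whether replicates were separate cultures, so the p-values describe the variation among these libraries only, and that variation may be technical. The authors deposited, for each library, a table of raw read counts for each gene symbol, in whole numbers. STAR and the builds mm10, hg19, GRCm38 and GRCh37 are named in the submitters' processing notes. The STAR version and the annotation release are not given in the sources used here. Column 4 (reads on the strand opposite to the first read) was used because the other strand held 1.43% to 2.12% of stranded gene reads. The 4 rows of totals outside genes were left out. Multimapping reads (8.95% to 16.3%) are not counted, so genes with near-identical copies are undercounted.

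CPM were computed on library sizes scaled by TMM. Genes were filtered by filterByExpr and tested in R 4.3.3 with edgeR 4.0.16 (quasi-likelihood F test, Benjamini-Hochberg over all genes of the fit). This left 11974 genes in 5TGM1, 13910 in 8226 and 11847 in the fit of the line difference over 12 libraries. The 9 human libraries shared a fit. Alternatives used limma 3.58.1 (voom), DESeq2 1.42.0, other scalings, no filter, the unstranded column 2, the replicate block, other membership thresholds and each library left out. Replicate pairs differed beyond sampling noise (chi-square per degree of freedom 3.98 to 25.8). A count of 0 allows up to 3 counts at 95% confidence, which covers counting error only.

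Named members were up to 8 per direction and comparison with the largest called change, 10 CPM or more in whichever group was higher and libraries that did not overlap, plus a fixed set of 16 named whatever their value. Members, lists and rules were chosen with earlier results of these data known. On simulated counts the test recovered 86% (5TGM1) and 34% (BR against naive 8226) of changes of 0.25 on the log2 scale. For changes of 0.5 the shares were 100% and 98%. False calls made up 4.46% of the calls in 5TGM1, 6.21% in BR and 7.69% in CR against naive 8226. They made up 4.57% in CR against BR and 3.64% in the line difference. Promoters came from RefSeq (GRCh38.p14) and transcript lengths from GENCODE 29, as the median of principal transcripts.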

Additional observations from a re-analysis of the deposited data

Results flagged for a closer look

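The change with bortezomib resistance differed between the 2 lines for 22 of the 29 named members tested. The test was edgeR's test of the difference itself (change in 8226 minus change in 5TGM1, log2, adjusted p below 0.05), which called 64.9% of all genes. Members named for the size of their difference had to be called by this same test. The 22 of 29 can therefore not be compared with the share of all genes. The change in 8226 was lower for small subunit members MRPS33 (-1.79), MRPS34 (-1.17), MRPS25 (-1.08), MRPS18B (-1.06), MRPS7 (-0.85), MRPS12 (-0.68) and MRPS6 (-0.54). It was lower for the large subunit members MRPL24 (-1.11), MRPL14 (-1.02), MRPL48 (-0.80), MRPL12 (-0.78), MRPL3 (-0.57) and MRPS18A (-0.35).

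The change in 8226 was higher for MRPS11 (1.14), MRPL52 (0.92), MRPL18 (0.71), MRPS16 (0.68), MRPL46 (0.58), MRPL19 (0.56), MRPS28 (0.48), MRPS36 (0.47) and MRPS18C (0.34). The members named for the size of their difference were picked by that test, so their calls and sizes are a description. Of these 22, MRPS18A lost its call under library size alone (-0.17, adjusted p = 0.0852). Groups of 3 libraries were too small to look for a library far from the others.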

How the results depend on the processing

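Of 2702 values of named members under the alternatives, 2602 kept their direction and side of the threshold, 44 lost the call, 34 gained it and 22 changed sign. Library size alone moved most. Members lower in BR 8226 then numbered 21, beside 33.7% of all genes (32 beside 41.6% with TMM). Members with a higher change in 8226 than in 5TGM1 numbered 28 (15 with TMM), and the share of all genes beside the 28 was not computed. Library size alone gave a summed CPM of 5787 in BR and 5598 in naive 8226, and member medians of 0.14 (BR against naive) and -0.10 (CR against BR). It also turned the sign of MRPL11 (0.057), MRPS22 (0.13), MRPS18A (0.13), MRPL24 (0.15), MRPL49 (0.0059) and MRPS27 (0.044) in BR against naive, MRPL45 in CR against naive (0.024), MRPS30 in CR against BR (-0.057), and of the line differences of MRPL45 (0.11), MRPS30 (0.12) and MRPS22 (0.026). Counting without strand gave 0.0018 for MRPS18C in CR against naive; the cause was not tested. With a library left out, the change ranged from -0.011 to 0.091 for Mrpl41, in BR against naive 8226 from -0.12 to 0.025 for MRPS22, -0.10 to 0.017 for MRPL24 and -0.11 to 0.0080 for MRPS18A, in CR against naive from -0.068 to 0.014 for MRPL45 and -0.019 to 0.086 for MRPS23, and in CR against BR from -0.086 to 0.0062 for MRPL10 and -0.085 to 0.032 for MRPS18A. Of these 22 values, only those of MRPL49 and MRPS27 belong to members called under TMM with all libraries.

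With a library left out, members called higher and lower numbered 42 to 52 and 7 to 10 in 5TGM1, 24 to 28 and 30 to 33 in BR 8226, 17 to 22 and 21 to 25 in CR 8226, 28 to 32 and 23 to 26 in CR against BR, and 14 to 19 and 34 to 41 in the line difference. Deviations of same-numbered libraries from their group means had correlations of -0.105 to -0.034 in 5TGM1 and -0.071 to 0.156 in 8226. For differently numbered libraries these were -0.030 to 0.102 and -0.152 to 0.110. With 3 libraries in a group such values cannot tell whether the numbers mark a shared batch. The main fit used no pairing. With the replicate block 47 members were higher and 8 lower in 5TGM1. The block lost the calls of Mrps22 (adjusted p = 0.0549) and of MRPS30 in BR 8226 (0.0551), and gained those of MRPL41 in BR 8226 (0.0265) and in the line difference (0.00907) and of MRPS18C in CR 8226 (0.0342). In simulated counts at these depths 34% of changes of 0.25 were recovered for BR against naive 8226, so changes of that size or smaller may not be detectable there.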
